A study of Homo sapiens with 6 samples.

Results

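Human chromosome 19 carries a dense collection of C2H2 zinc finger genes, most of them named ZNF with a number. Of the 15376 coding genes in the deposited table, 242 carry a symbol that starts with ZNF and a digit and lie on chromosome 19, and 239 such genes lie on other chromosomes. Their transcripts were counted by RNA sequencing of PC9ER, an established line of human lung cancer cells whose growth signal is the receptor kinase EGFR and which resists the EGFR blocker gefitinib. There were 6 libraries in 2 groups: 3 from cells given 1 µM gefitinib during the last 6 h, and 3 from control cells given only DMSO as vehicle. All cells were grown in medium with 10% fetal calf serum, and one protocol with 72 h of vehicle and serum withdrawal overnight stands for every sample. It leaves unsaid whether control cells also went without serum, so drug and serum cannot be told apart for any difference below. Nothing in the labels ties a replicate to a culture of its own, and the p-values therefore measure the spread between libraries, which can be technical.

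C2H2 zinc finger proteins bind DNA through arrays of short zinc-holding loops, each of which contacts a few bases. Most of those encoded on chromosome 19 also carry a KRAB domain, which recruits the corepressor TRIM28 (KAP1). TRIM28 in turn brings in the histone methyltransferase SETDB1 and heterochromatin proteins. The best known targets of these repressors are transposable elements, and the genes themselves arose by tandem duplication, which left them in clusters with similar sequences.

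Coding genes received between 13674237 and 38581498 reads per gefitinib library and between 16211544 and 25639050 per control library, and between 13746 and 14567 genes had reads. Values are normalized read counts, reads scaled by the authors to a common total of 18085800.3 per library. The groups separated on principal component 1 (71.4% of the variance), and component 2 set replicate 1 of both groups apart. On it, gefitinib replicates 1, 2 and 3 stood at 23.3, -8.86 and -11.1, and control replicates 1, 2 and 3 at 38.1, -12.6 and -28.8. The 6 epithelial marker genes EPCAM, CDH1, KRT7, KRT8, KRT18 and KRT19 ranged from 8781 to 26946 in the 6 libraries. Summed, they reached 67726 to 70679 in gefitinib libraries and 81344 to 116558 in control libraries, with 1 of them higher and 5 lower. Of the markers of blood, fibroblast, endothelial and neuroendocrine cells, the endothelial adhesion gene PECAM1 had 126, 110.2 and 130.3 in gefitinib libraries and 1231, 1129 and 1288 in control libraries. CD14, a monocyte marker, was called higher at a level near the detection limit, with 7.94, 4.52 and 8.91 in gefitinib libraries and 0, 0 and 0.965 in control libraries. The others reported here stayed at or below 70.5. The part of these markers in the results below was not tested. In bulk RNA, fewer cells of a type and less RNA per cell cannot be told apart.

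The family as a whole took a larger part of the coding RNA after gefitinib. Summed over the 242 genes, the normalized read count was 78737, 77669.7 and 77423 in gefitinib libraries and 63977, 56092 and 53353 in control libraries. This was 0.435%, 0.429% and 0.428% of the library total in gefitinib libraries, against 0.354%, 0.310% and 0.295% in control libraries. The groups did not overlap, and the gefitinib libraries lay closer together than the control libraries.

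The comparison asked which genes differed between gefitinib and control cells, by limma-trend on log2(value + 1) with Benjamini-Hochberg adjustment over 15229 tested genes and a threshold of 0.05. Log2 differences are gefitinib minus control on that scale, where the added 1 shrinks the differences of genes with few reads. ZNF154 was at 0 in all 6 libraries, so 241 members were tested. Of these, 119 (49.4%) rose, 28 (11.6%) fell and 94 did not pass the threshold, while 28.3% of all tested genes rose and 22.8% fell (51.1% in either direction). A rise of at least 2-fold was reached by 67 members and a fall of that size by 18, against 12.4% and 9.92% of all tested genes. Every gefitinib library was above every control library for 131 members, and every one below for 35. Over all tested genes, these shares were 32.3% and 25.7%. On reads recovered from the scaled values, edgeR's quasi-likelihood test called 114 members higher and 32 lower of 211 tested, against 30.5% and 30.8% of all genes it tested. Both counts changed when 1 library was left out, where fewer libraries were fitted. They were 95 members higher and 18 lower without gefitinib replicate 2, and 100 and 18 without gefitinib replicate 3. Without gefitinib replicate 1 the counts were 106 members higher and 24 lower. Without control replicate 1 they were 127 and 26, without control replicate 2 103 and 19, and without control replicate 3 108 and 23. The shares over all tested genes in these fits are not given here. A change particular to the members therefore cannot be told apart from a change over the whole table.

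The median log2 difference over the 241 members was 0.58, with quartiles at -0.07 and 1.07, and 175 members lay above 0. The 94 members that did not pass the threshold had log2 differences of -1.80 to 1.25, with a median of 0.08. Over all tested genes the median was 0.10. The 238 tested ZNF genes of other chromosomes had a median of 0.17, with 84 (35.3%) higher and 57 (23.9%) lower. The 939 other tested coding genes of chromosome 19 had a median of 0.12, with 210 (22.4%) higher and 184 (19.6%) lower. These are counts side by side, and the difference between the groups of genes was not tested.

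**Figure D1:**
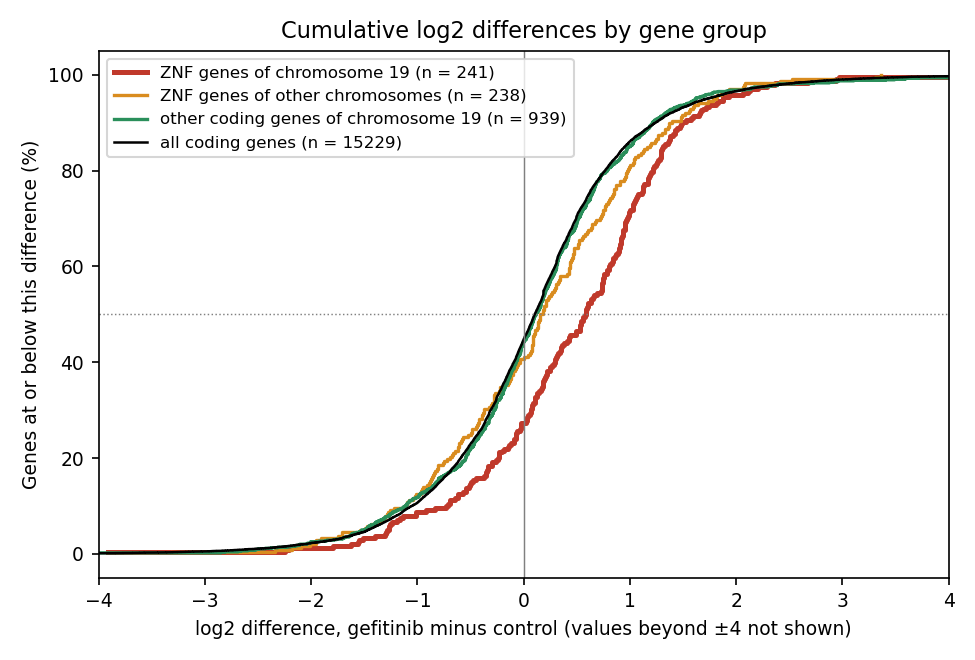
Share of genes at or below each log2 difference (gefitinib minus control) for the 241 tested ZNF genes of chromosome 19 and 3 other groups of genes. The curve of the ZNF genes of chromosome 19 lies to the right of the others over most of its course and crosses 50% at 0.58, against 0.10 for all coding genes.

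The 12 largest rises among members with a mean level of at least 5 CPM (reads relative to the library total) and no overlap between groups ran from 1.59 to 2.94 on the log2 scale. ZNF568 (chr19:36916329-36998700, GRCh38), whose mouse counterpart Zfp568 represses a placental transcript of Igf2, had 282, 359 and 333 normalized reads in gefitinib libraries and 55.7, 31.2 and 40.5 in control libraries (log2 difference 2.94 ± 0.24 (SE), adjusted p = 1.36e-05). Its lowest gefitinib library was above its highest control library, as the selection required. ZNF599 (chr19:34758076-34773229) had 303, 314 and 303 in gefitinib libraries and 49.4, 50.2 and 42.5 in control libraries (log2 difference 2.67 ± 0.17 (SE), adjusted p = 4.21e-06). The gefitinib values of ZNF599 were nearly equal and far above the control values. ZNF350 (ZBRK1, chr19:51964343-51986856), a repressor that partners with BRCA1, had 692, 689 and 674 in gefitinib libraries and 224, 181 and 160.2 in control libraries (log2 difference 1.87 ± 0.14 (SE), adjusted p = 9.88e-06). ZNF420 (APAK, chr19:37007857-37130314), described as a restrainer of p53, had 296, 288 and 271 in gefitinib libraries and 72.7, 98.2 and 84 in control libraries (log2 difference 1.75 ± 0.17 (SE), adjusted p = 4.17e-05). For both genes the groups were apart, as the selection required.

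ZNF461 (GIOT-1), first described as a gonadotropin-induced repressor in rat ovary, had 259, 346 and 342 in gefitinib libraries and 114, 105 and 81.1 in control libraries (log2 difference 1.65 ± 0.20 (SE), adjusted p = 0.000112). The other 7 of the 12 were ZNF570 (1.88), ZNF383 (1.82), ZNF829 (1.72), ZNF714 (1.69), ZNF844 (1.67), ZNF230 (1.66) and ZNF419 (1.59), given as log2 differences. Of the 12, ZNF570, ZNF420, ZNF383, ZNF829, ZNF461 and ZNF568 lie between the starts of ZNF565 and ZNF573. The remaining 107 members that rose had log2 differences of 0.32 to 4.67, with a median of 1.03. ZNF569, chosen after its values were seen, held the upper end. It had 95.2, 179 and 216 in gefitinib libraries and 4.94, 5.58 and 4.83 in control libraries (log2 difference 4.67 ± 0.35 (SE), adjusted p = 7.91e-06), from 731 reads in gefitinib libraries and 17 in control libraries. Its mean was below 5 CPM, and its gefitinib replicate 1 was the lowest of its group.

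Falls were fewer and included the member with the largest fall of all. ZNF114 (chr19:48270102-48287608), which has 3 zinc finger matches in its protein, had 332, 199.7 and 142 in gefitinib libraries and 3794, 3043 and 2810.0 in control libraries (log2 difference -3.91 ± 0.26 (SE), adjusted p = 5.05e-06). Its gefitinib libraries also differed among themselves, with replicate 1 highest, but the highest was far below the lowest control library. ZNF526 (chr19:42220271-42228201) had 74.1, 65.1 and 56.7 in gefitinib libraries and 256, 307 and 386 in control libraries (log2 difference -2.25 ± 0.21 (SE), adjusted p = 2.63e-05). ZNF576 (chr19:43596392-43601157) had 62.2, 46.1 and 32.8 in gefitinib libraries and 127, 142 and 162 in control libraries (log2 difference -1.63 ± 0.27 (SE), adjusted p = 0.000784). In both genes the groups did not overlap, as the selection of the largest falls required. ZNF444, which carries a SCAN domain, a module for pairing with other zinc finger proteins, had 140.2, 177 and 163 in gefitinib libraries and 354, 385 and 417 in control libraries (log2 difference -1.27 ± 0.15 (SE), adjusted p = 0.000112). ZNF347 had 129.6, 143 and 127 in gefitinib libraries and 318, 312 and 317 in control libraries (log2 difference -1.24 ± 0.14 (SE), adjusted p = 8.86e-05), and its control values were almost the same in all 3 libraries.

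The other 7 of the 12 largest falls were ZNF8 (-1.56), ZNF880 (-1.55), ZNF681 (-1.29), ZNF584 (-1.27), ZNF562 (-0.74), ZNF749 (-0.69) and ZNF587 (-0.69). Of ZNF8, 20.7% of the exon bases overlap another gene on the same strand. ZNF749 did not pass the threshold without gefitinib replicate 2 (adjusted p = 0.0719, limma) or without gefitinib replicate 3 (0.0833). The 16 other members that fell had log2 differences of -2.21 to -0.45.

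**Figure D2:**
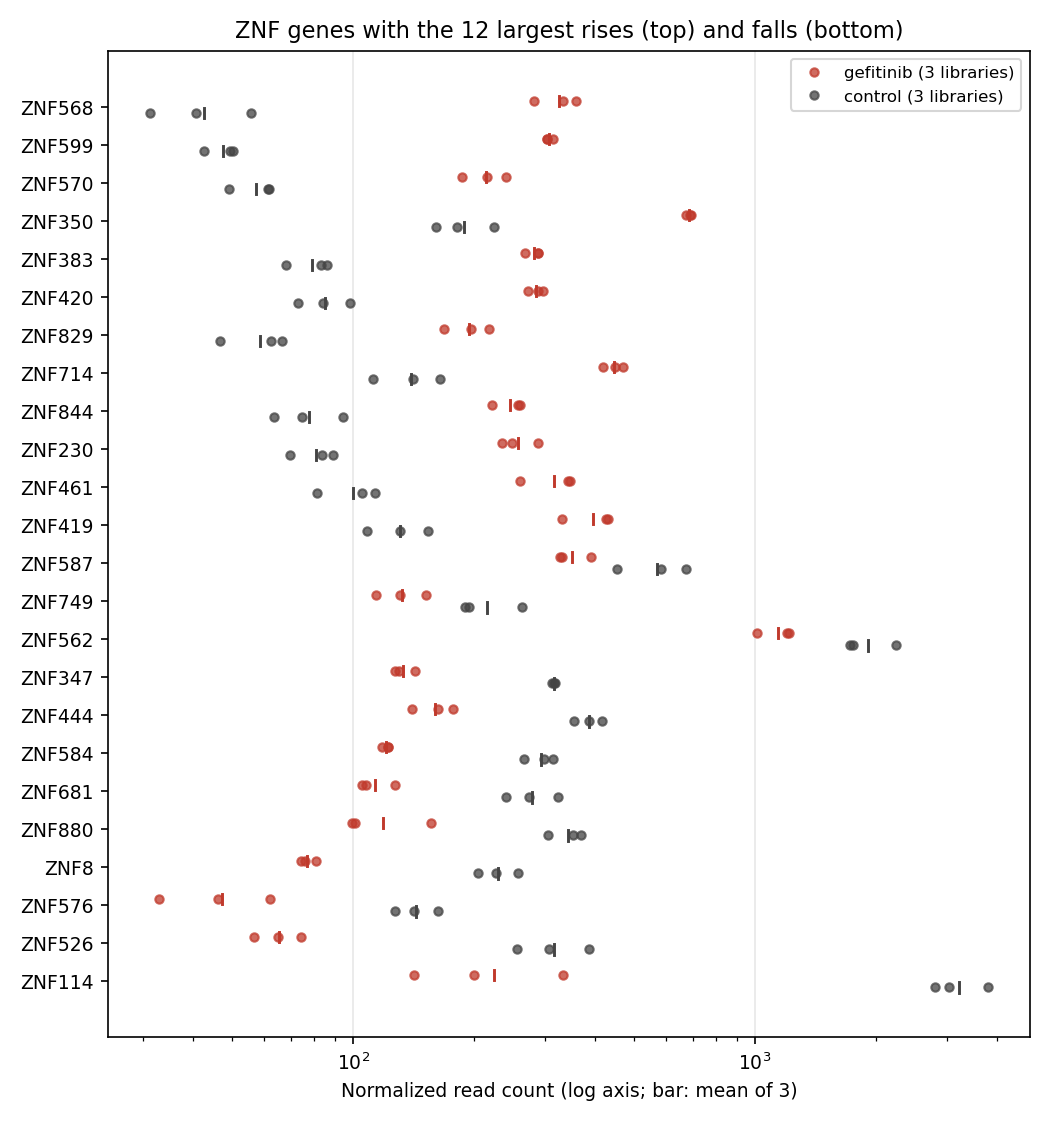
Normalized read count (log axis) of the 12 largest rises and the 12 largest falls, with 1 point per library, gefitinib above control for each gene and a bar at the mean of 3. The 24 genes were chosen among members whose gefitinib and control libraries do not overlap, and ZNF114 has the widest gap among the falls.

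The promoter windows of the 2 largest of these rises, ZNF568 and ZNF599, and of ZNF526 and ZNF576, the largest of these falls with a listed window, are shown to compare their letters. Each window runs from 250 bases before to 50 after the first start listed by RefSeq (GRCh38.p14), 5′ to 3′ on the gene's strand. Capitals mark the ETS core CCGGAAG and the CCAAT box on either strand, and an ETS core cannot overlap a CCAAT box. The windows are chr19:36916082-36916381 (plus strand), chr19:34773166-34773465 (minus strand), chr19:42220062-42220361 (plus strand) and chr19:43596142-43596441 (plus strand).
ZNF568: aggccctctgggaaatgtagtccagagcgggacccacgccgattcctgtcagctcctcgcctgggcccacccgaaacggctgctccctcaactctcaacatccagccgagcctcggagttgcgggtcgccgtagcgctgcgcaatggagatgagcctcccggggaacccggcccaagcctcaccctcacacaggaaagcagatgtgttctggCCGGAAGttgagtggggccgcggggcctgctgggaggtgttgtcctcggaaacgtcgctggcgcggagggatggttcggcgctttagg
ZNF599: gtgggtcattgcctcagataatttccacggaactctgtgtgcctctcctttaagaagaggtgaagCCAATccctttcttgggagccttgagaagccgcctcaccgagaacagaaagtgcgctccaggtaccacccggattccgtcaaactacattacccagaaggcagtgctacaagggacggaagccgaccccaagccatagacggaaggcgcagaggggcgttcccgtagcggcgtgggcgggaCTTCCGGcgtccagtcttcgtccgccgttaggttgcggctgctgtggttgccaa
ZNF526: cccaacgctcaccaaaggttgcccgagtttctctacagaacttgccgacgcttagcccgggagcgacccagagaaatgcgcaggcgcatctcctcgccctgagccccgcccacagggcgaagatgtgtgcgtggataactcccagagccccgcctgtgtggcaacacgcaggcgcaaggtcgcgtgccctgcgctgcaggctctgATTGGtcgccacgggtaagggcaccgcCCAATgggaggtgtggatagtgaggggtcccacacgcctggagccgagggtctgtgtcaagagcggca
ZNF576: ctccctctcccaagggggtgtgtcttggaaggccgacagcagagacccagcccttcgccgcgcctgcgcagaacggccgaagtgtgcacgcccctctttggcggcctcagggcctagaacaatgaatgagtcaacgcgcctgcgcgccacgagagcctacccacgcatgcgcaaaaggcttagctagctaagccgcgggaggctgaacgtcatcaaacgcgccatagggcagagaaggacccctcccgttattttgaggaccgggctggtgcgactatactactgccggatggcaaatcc

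The windows of ZNF568 and ZNF599, both of which rose, hold 1 ETS core each, and that of ZNF599 also holds 1 CCAAT box. The window of ZNF526, which fell, holds no ETS core and 2 CCAAT boxes, and that of ZNF576, which also fell, holds neither string. Over the family the share with an ETS core was similar among rises and falls. A window was matched for 209 of the 242 members. The ETS core, bound by ETS transcription factors, stood in 44.3% of 106 windows of members that rose, in 40% of 25 that fell and in 48.1% of 77 that did not pass the threshold. It stood in 94 of the 209 member windows, in 36.6% of 194 windows of ZNF genes on other chromosomes and in 17.0% of 11608 windows of all coding genes. The CCAAT box stood in 53.1% of member windows and 36.0% of all coding windows. The TATA box TATAAA was rarer in member windows, at 1.91% against 6.76%. The AP-1 site TGACTCA was found in 2.39% of member windows and 3.45% of all coding windows, the cyclic AMP element TGACGTCA in 3.35% and 2.91%, and the forkhead site GTAAACA in 0.957% and 2.33%. Member windows held a median of 20 CpG pairs, against 25 in all coding windows. All strings were searched on both strands, and a match describes letters, not a bound site.

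Apart from ZNF114, the most abundant members changed by under 2-fold. By mean normalized read count the first 6 were ZNF146, ZNF317, ZNF121, ZNF114, ZNF468 and ZNF562. ZNF146 (OZF), a protein made almost wholly of fingers with no KRAB domain, had 3035, 2967 and 3131 in gefitinib libraries and 2339, 1994 and 2018 in control libraries (log2 difference 0.53 ± 0.09 (SE), adjusted p = 0.000758). ZNF317 had 2289, 2416 and 2543 in gefitinib libraries and 1561, 1564 and 1465 in control libraries (log2 difference 0.66 ± 0.08 (SE), adjusted p = 0.000126). In both, the groups were apart. ZNF468 had 2256, 1895 and 1892 in gefitinib libraries and 1181, 998 and 943 in control libraries (log2 difference 0.95 ± 0.11 (SE), adjusted p = 0.000114), but 53.3% of its exon bases overlap another gene on the same strand, so part of its reads may belong to that gene. ZNF562 had 1217, 1199 and 1009 in gefitinib libraries and 2243, 1755 and 1727 in control libraries (log2 difference -0.74 ± 0.12 (SE), adjusted p = 0.00093), with 18.9% of its exon bases opposite another gene.

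ZNF121 had 1464, 1567 and 1459 in gefitinib libraries and 2982, 2152 and 1612 in control libraries (log2 difference -0.54 ± 0.19 (SE), adjusted p = 0.035). Its control libraries spread widely, with replicate 1 highest and replicate 3 only just above the gefitinib libraries. Its call was lost without gefitinib replicate 1 (adjusted p = 0.147, limma), 2 (0.144) or 3 (0.211) and without control replicate 1 (0.0869) or 2 (0.129). Without control replicate 1 its log2 difference was -0.32. Per kilobase of transcript, the scale on which genes can be compared, ZNF114 had the highest mean level of the family in control libraries and ZNF146 in gefitinib libraries. In normalized reads per kilobase, ZNF114 had 90.6 in gefitinib libraries and 1298 in control libraries, ZNF146 had 805 in gefitinib libraries and 560.1 in control libraries and ZNF562 had 541 in gefitinib libraries and 904 in control libraries.

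Of the 4 members named here as repressors of transposable elements, ZNF587 fell and ZNF91, ZNF93 and ZNF417 did not pass the threshold. ZNF91 (chr19:23304991-23395560), which represses SVA elements, had 460.3, 473 and 452 in gefitinib libraries and 736, 542 and 513 in control libraries (log2 difference -0.35 ± 0.15 (SE), adjusted p = 0.0708). Every gefitinib library was below every control library, yet the difference missed the threshold. It passed as lower in 8 of 19 alternative settings, among them edgeR on recovered reads (adjusted p = 0.037), removal of the trend with transcript GC content (0.000707) and the fit without control replicate 3 (0.0491). ZNF93, chosen after its values were seen and known to repress LINE-1 elements, had 255, 207 and 210.0 in gefitinib libraries and 326, 280.0 and 250.0 in control libraries (log2 difference -0.35 ± 0.16 (SE), adjusted p = 0.101). Its groups overlapped, and it passed as lower in 4 alternative settings. ZNF587 and ZNF417, near-copies of each other that bind HERV-K elements, are hard to separate, since 38.2% of the 50-base stretches of ZNF417 and 20.1% of those of ZNF587 also stand in other genes.

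ZNF587 had 331, 389 and 328 in gefitinib libraries and 674, 583 and 453 in control libraries (log2 difference -0.69 ± 0.16 (SE), adjusted p = 0.00565), and without gefitinib replicate 3 it no longer passed (adjusted p = 0.0666, limma). ZNF417 had 93.9, 92.2 and 69.8 in gefitinib libraries and 151, 109 and 108 in control libraries (log2 difference -0.52 ± 0.22 (SE), adjusted p = 0.0845). Both had lower values in every gefitinib library, but ZNF417 passed the threshold only in 5 alternative settings, with edgeR at an adjusted p of 0.0336. ZNF208 and ZNF90 lie in the same stretch of the chromosome as ZNF91. ZNF208 was close to the detection limit, with 4 reads in all gefitinib libraries and 10 in all control libraries, and did not pass (adjusted p = 0.104, limma). Without gefitinib replicate 2 it passed as lower (adjusted p = 0.0172). ZNF90 rose, with 233, 208 and 176 in gefitinib libraries and 107, 75.9 and 68.5 in control libraries (log2 difference 1.30 ± 0.22 (SE), adjusted p = 0.000935), but overlaps other genes over 13.7% of its exon bases on the opposite strand.

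ZNF274 (chr19:58183029-58213562) binds the 3′ ends of other zinc finger genes and recruits TRIM28 and SETDB1 to them. It had 1387, 1213 and 1108 in gefitinib libraries and 1244, 1152 and 1121 in control libraries (log2 difference 0.07 ± 0.10 (SE), adjusted p = 0.596). The groups overlapped, with 1236 ± 141 in gefitinib libraries and 1172 ± 64.2 in control libraries on average (SD, n = 3 each). ZNF331, an imprinted gene, had 679.8, 1028 and 925 in gefitinib libraries and 854, 702 and 512 in control libraries (log2 difference 0.36 ± 0.20 (SE), adjusted p = 0.175), and its groups overlapped as well.

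Of 5 other members with a described role or on the same list, ZNF224, ZNF473 and ZNF382 rose, and ZNF675 and ZNF45 did not pass the threshold. ZNF224, a repressor of the aldolase A gene, had 508, 529 and 528 in gefitinib libraries and 328, 315 and 258 in control libraries (log2 difference 0.80 ± 0.13 (SE), adjusted p = 0.000703), with 40.5% of its exon bases opposite another gene. ZNF473 (ZFP100), a partner of the U7 particle in the processing of histone messenger RNA ends, had 1109.7, 1103 and 1081 in gefitinib libraries and 552, 523 and 569 in control libraries (log2 difference 1.00 ± 0.09 (SE), adjusted p = 2.23e-05). Both had groups that were apart. ZNF382, reported as silenced by DNA methylation in several cancers, had 15.9, 13.6 and 19.7 in gefitinib libraries and 4.94, 0 and 7.72 in control libraries (log2 difference 2.21 ± 0.72 (SE), adjusted p = 0.0284), from 69 reads in gefitinib libraries and 15 in control libraries. Its call was lost without gefitinib replicate 1 (adjusted p = 0.115, limma), 2 (0.123) or 3 (0.191) and without control replicate 1 (0.0632). ZNF675 (TIZ), which binds the signalling adaptor TRAF6, had 378, 355 and 354 in gefitinib libraries and 364, 270.0 and 288 in control libraries and did not pass (log2 difference 0.25 ± 0.14 (SE), adjusted p = 0.182), although it did as higher without control replicate 1 (0.0157). ZNF45 had 600.5, 430.2 and 379 in gefitinib libraries and 419.7, 368 and 378 in control libraries and did not pass (log2 difference 0.25 ± 0.17 (SE), adjusted p = 0.264).

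Members were split by position wherever neighbouring starts lay over 500 kb apart, which gave 10 position groups of 5 or more genes. Rises outnumbered falls in 9 of the 10. They also did so over all tested members (49.4% higher, 11.6% lower) and over all tested genes (28.3% and 22.8%). In the group from ZNF653 to ZNF791 (chr19:11483427-12640098), 16 of 26 members rose and none fell in the limma fit, with a median log2 difference of 1.04. At an unadjusted p under 0.05, 1 of them was lower, and edgeR, DESeq2 and limma-voom called none lower. In the group from ZNF565 to ZNF573 (chr19:36182060-37817300), which holds ZNF568, ZNF569, ZNF570, ZNF383, ZNF420, ZNF829 and ZNF461, 16 of 26 rose and 1 fell, with a median of 0.89. The small group from ZNF302 to ZNF792 had 3 of 5 higher, none lower by limma and a median of 1.49. There 1 member was lower at an unadjusted p under 0.05 and by each of edgeR, DESeq2 and limma-voom.

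At this gap the exception was the group from ZNF628 to ZNF71 (chr19:55476332-56626481). Of its 15 members 3 rose and 6 fell, and the median was 0.04. With a gap of 1 Mb it merged with the next group into ZNF628 to ZNF446, of which 21 of 57 tested members rose and 13 fell, and rises then outnumbered falls in every group of 5 or more. At 500 kb that next group, from ZNF264 to ZNF446, had 18 of 42 tested members higher and 7 lower, with a median of 0.43. The largest group by span, from ZNF101 to ZNF254, holds ZNF91, ZNF90, ZNF93, ZNF208, ZNF675, ZNF681 and ZNF714. There 16 of 34 rose and 1 fell. From ZNF575 to ZNF180, 12 of 23 rose and 2 fell, and from ZNF175 to ZNF331, 19 of 38 rose and 4 fell. From ZNF414 to ZNF846, 7 of 14 rose and 3 fell, and from ZNF554 to ZNF77, 3 of 5 rose and 1 fell.

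The log2 differences of neighbouring members were weakly correlated. Across the 222 pairs of neighbours within a position group, Pearson's r of their log2 differences was 0.31, as a description across genes that share libraries and, in part, sequence. Of the 82 pairs in which both genes passed the threshold, 64 were both higher, 8 were both lower and 10 had opposite calls. Of all members past the threshold, 119 were higher and 28 lower, so pairs of both higher are common whatever the position. Pairs drawn without regard to position were not counted. ZNF114, with the largest fall, had no member within 500 kb.

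**Figure D3:**
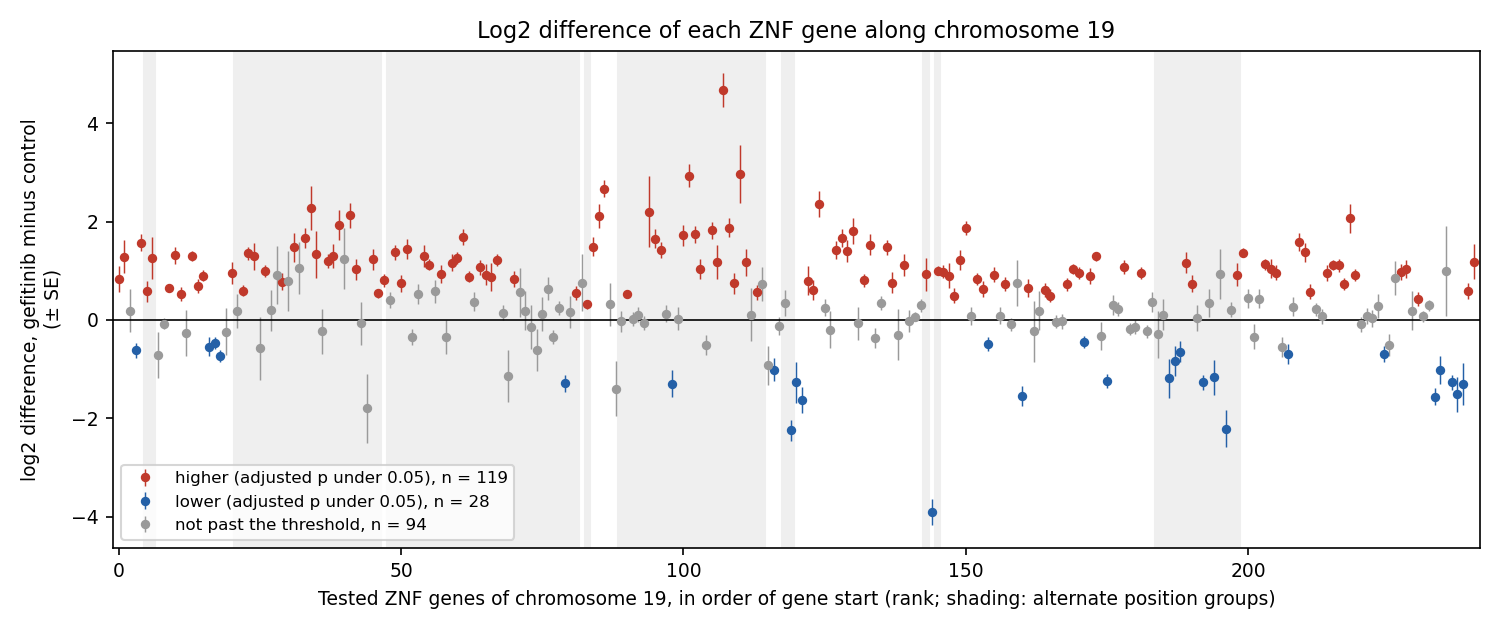
Log2 difference (gefitinib minus control, ± SE) of the 241 tested members in the order of their gene starts, with shading for alternate position groups. Members that rose are spread over most of the order, and ZNF569 at 4.67 and ZNF114 at -3.91 are the extremes.

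Members were also described by what their proteins and transcripts contain. Translated GENCODE coding sequences of 240 members held 0 to 36 zinc finger matches, with a median of 12. Those with 10 to 15 fingers had 66 of 120 tested members higher and 11 lower, with a median log2 difference of 0.71. Those with under 10 fingers had 28 of 63 higher and 12 lower (median 0.35), and those with over 15 had 24 of 56 higher and 5 lower (median 0.33). A strict KRAB pattern matched 171 members, of which 85 of 170 tested rose and 19 fell (median 0.59), against 33 and 9 of 69 without it (median 0.43). With a looser second pattern, chosen after the values were seen because the strict one missed known KRAB genes, 105 of 203 rose and 19 fell (median 0.63). Among the 36 members that matched neither, 13 rose and 9 fell (median 0.14). No test was made between these classes.

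Transcripts of the family are poor in G and C, with a median GC content of 42.4%. Of 65 tested members under 40% GC, 34 rose and 5 fell, with a median log2 difference of 0.64, and over all 1957 coding genes under 40% GC the median was 0.18, with 36.9% higher and 21.5% lower. Of 105 members at 40 to 45% GC, 57 rose and 8 fell (median 0.73). Over all 3034 such genes the median was 0.12, with 32.2% higher and 24.5% lower. Of 44 at 45 to 55% GC, 19 rose and 6 fell (median 0.39), against 0.06 over all 5007, with 29.2% higher and 25.7% lower. The 25 members at 55% GC or more had 8 (32%) higher, 9 (36%) lower and a median of 0.11. Over all 5075 such genes the median was 0.10, with 22.1% higher and 19.9% lower. With the trend on GC content removed from the whole table, 121 members were higher and 41 lower, against 29.7% and 29.5% of all genes, and the member median was 0.48, against 0.03 over all genes. In that fit the members under 40% GC had a median of 0.49, those at 40 to 45% 0.62, those at 45 to 55% 0.34 and those at 55% or more 0.01. With the trend on transcript length removed, the member median was 0.50, and the median over all genes in that fit is not given here. Removing a trend also recentres each library. Rescaling by TMM or DESeq2 size factors alone gave a member median of 0.52.

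**Figure D4:**
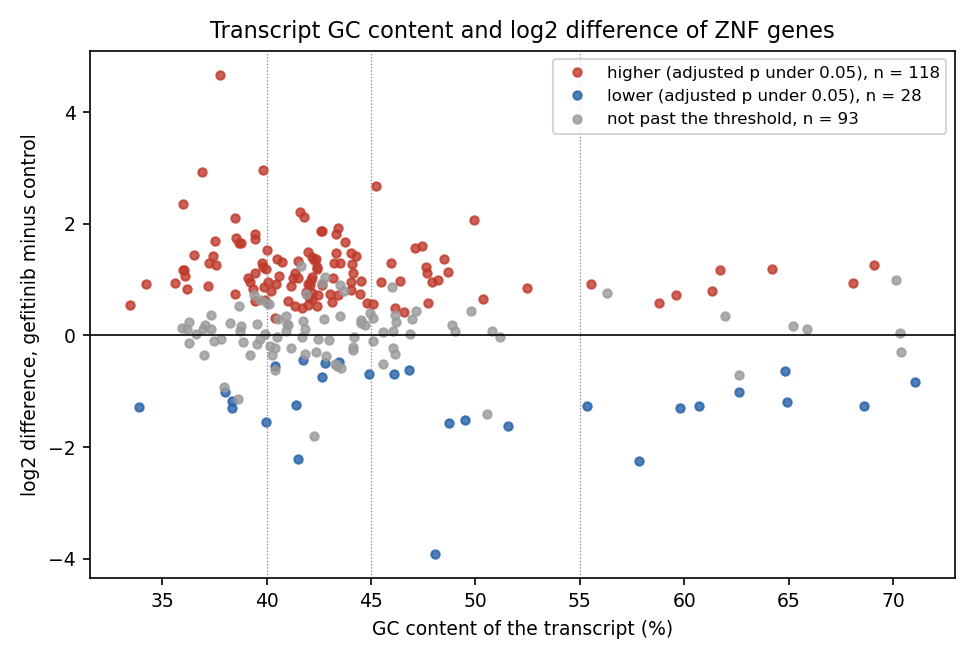
Log2 difference (gefitinib minus control) against transcript GC content for members with an annotated transcript, with dotted lines at 40, 45 and 55%. Most members lie below 45% GC, both those that rose and those that did not pass the threshold. At 55% or more, members that fell (9) are as common as members that rose (8). Over all coding genes at 55% or more, 19.9% fell and 22.1% rose.

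Tandem duplicates can share reads, so members were also split by sequence shared with other genes. For 16 members more than 10% of 50-base stretches also stand in other genes, and for 56 more than 10% of exon bases overlap another gene. The 176 tested members below both limits had 85 higher and 19 lower, with a median of 0.54, and the other 65 had 34 higher and 9 lower, with a median of 0.73. The sources used here do not give whether reads were counted by strand. By level, 97 of 161 members with a mean of 5 CPM or more rose and 19 fell (median 0.65), while 22 of 80 members with a lower mean rose and 9 fell (median 0.18). Over all genes with a mean of 5 CPM or more, 33.2% rose and 28.6% fell (median 0.06). Over all genes below that level, 18.7% rose and 11.3% fell, with a median of 0.21. Of the low-level members, 27.5% rose and 11.2% fell. The median log2 difference of the low-level members was thus no higher than that of all low-level genes, but their share of rises was. Their median level was also higher, at 22.6 normalized reads against 4.61.

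The 25 genes of a corepressor list did not move in one direction. Besides TRIM28, SETDB1 and heterochromatin proteins, the list holds DNA methyltransferases, other histone methyltransferases and genes of the HUSH silencing complex. Its counts are therefore not those of KRAB corepressors alone. Of the 25 genes, 4 (16%) rose, 11 (44%) fell and 10 did not pass the threshold. Over all tested genes, 28.3% were higher and 22.8% lower. The median log2 difference was -0.17, and this list was chosen by function with earlier results of these data known. TRIM28, the corepressor that KRAB domains bind directly, had 4379, 5135 and 5679 in gefitinib libraries and 1554, 2385 and 2754 in control libraries (log2 difference 1.21 ± 0.19 (SE), adjusted p = 0.000626). Every gefitinib library was above every control library, and control replicate 1 was the lowest. Without that library its log2 difference was 0.97, with an adjusted p of 0.00181 by limma. SETDB1, the methyltransferase that TRIM28 recruits, had 735, 682 and 654 in gefitinib libraries and 1086, 1027 and 938 in control libraries (log2 difference -0.56 ± 0.10 (SE), adjusted p = 0.00127). ATF7IP, the partner that stabilises SETDB1, had 3055, 2432 and 2532 in gefitinib libraries and 1680.3, 1605 and 1766 in control libraries (log2 difference 0.66 ± 0.10 (SE), adjusted p = 0.000514). So SETDB1 fell while TRIM28 and ATF7IP rose, and in each gene the groups were apart. These 3 genes were named for their role after their values were seen.

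Of the heterochromatin proteins that read the mark SETDB1 writes, CBX5 and CBX3 fell and CBX1 rose. CBX5 (HP1 alpha) had 4571, 4897 and 4977 in gefitinib libraries and 8282, 7912 and 8215 in control libraries (log2 difference -0.76 ± 0.07 (SE), adjusted p = 2.98e-05). CBX1 (HP1 beta) had 1651, 1814 and 1799 in gefitinib libraries and 1126, 1014 and 1103 in control libraries (log2 difference 0.70 ± 0.09 (SE), adjusted p = 0.000143). Both had groups without overlap. CBX3 (HP1 gamma) had 5808, 6006 and 6030.2 in gefitinib libraries and 8689, 7025 and 6656 in control libraries (log2 difference -0.32 ± 0.10 (SE), adjusted p = 0.0273), and its call was lost without gefitinib replicate 1 (adjusted p = 0.107, limma), 2 (0.115) or 3 (0.124) and without control replicate 2 (0.0677). MPHOSPH8, a subunit of the HUSH silencing complex, had 559, 513 and 430.3 in gefitinib libraries and 1201, 1031 and 1031 in control libraries (log2 difference -1.12 ± 0.12 (SE), adjusted p = 7.5e-05). MORC2, an ATPase that works with HUSH, had 504, 528 and 609.9 in gefitinib libraries and 857, 962 and 965 in control libraries (log2 difference -0.76 ± 0.11 (SE), adjusted p = 0.000368). Both fell, whereas PPHLN1, another HUSH subunit, rose, with 1952, 1904 and 1752 in gefitinib libraries and 1576, 1311 and 1266 in control libraries (log2 difference 0.44 ± 0.10 (SE), adjusted p = 0.0059). FAM208A (TASOR), also a HUSH subunit, fell (log2 difference -0.24 ± 0.08 (SE), adjusted p = 0.0383, limma). It had 1368, 1460 and 1396 in gefitinib libraries and 1790, 1611 and 1593 in control libraries. FAM208A did not pass in every alternative setting. CBX3, PPHLN1 and FAM208A were named after their values were seen. Falls were also found for DNMT3A, a de novo DNA methyltransferase, with 182 ± 9.84 in gefitinib libraries and 416 ± 74.1 in control libraries (SD, n = 3 each), and SUV39H2, a histone H3 lysine 9 methyltransferase, with 262 ± 12.7 in gefitinib libraries and 581 ± 78.3 in control libraries. The log2 differences of DNMT3A and SUV39H2 were -1.18 and -1.14. Summed over the 25 genes, the normalized read count was 56858 to 58208 in gefitinib libraries and 62301 to 65588 in control libraries.

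**Figure D5:**
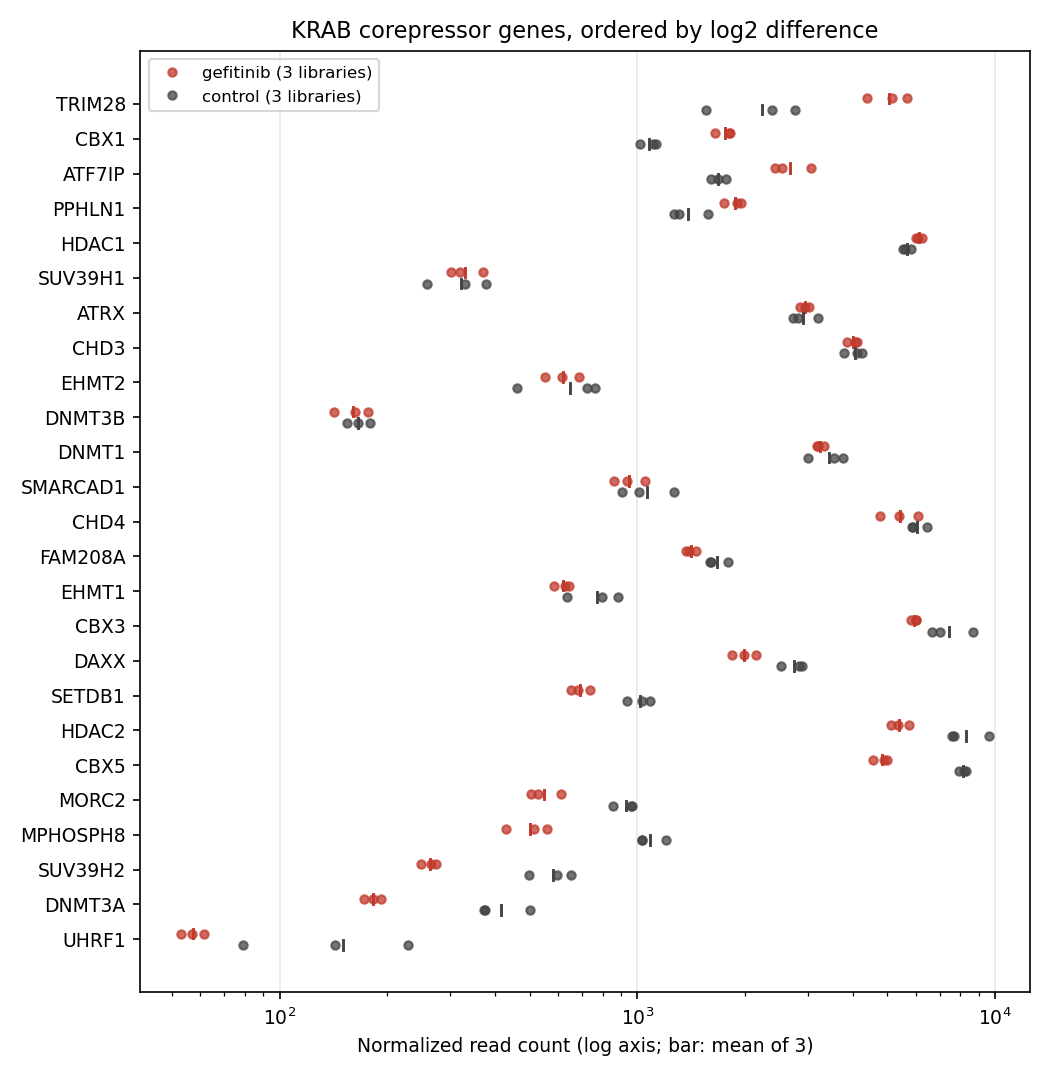
Normalized read count (log axis) of the 25 genes of the corepressor list in each library, ordered by log2 difference. Gefitinib is above control for each gene, with a bar at the mean of 3. TRIM28 is at the top with no overlap between groups, and 11 genes toward the bottom fell.

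Zinc finger genes of chromosome 19 with other symbols were counted separately. Of 22 listed, 17 were in the table, and 6 (35.3%) rose, 3 (17.6%) fell and 8 did not pass, with a median log2 difference of 0.19, against 28.3% higher and 22.8% lower over all tested genes. KLF2, a factor with a short finger array, had 39.7, 53.3 and 43.1 in gefitinib libraries and 7.76, 8.92 and 6.76 in control libraries (log2 difference 2.39 ± 0.29 (SE), adjusted p = 0.00014). ZFP36, whose CCCH fingers bind messenger RNA and promote its decay, had 749.9, 783 and 821 in gefitinib libraries and 361, 368 and 335 in control libraries (log2 difference 1.14 ± 0.10 (SE), adjusted p = 2.42e-05). ZFP30 and ZFP14, KRAB genes that lie among the members from ZNF565 to ZNF573, had opposite calls, with log2 differences of 0.54 and -1.01. Of the other listed genes in that stretch, ZFP82 rose (log2 difference 1.21, adjusted p = 0.0196, limma) and HKR1 did not pass (-0.01). The call of ZFP82 was not kept in every alternative setting. ZFP28, a further KRAB gene, fell, with 298 ± 35.2 in gefitinib libraries and 503 ± 37.2 in control libraries (SD, n = 3 each). ZSCAN5B rose at a low level, with 6.32 ± 2.83 in gefitinib libraries and 1.07 ± 1.12 in control libraries. The call of ZFP30 was lost without gefitinib replicate 2 (adjusted p = 0.0644, limma) and without control replicate 2 (0.0582), and that of ZSCAN5B without gefitinib replicate 1 (0.0614) or 3 (0.0825). The number that rose was 3 without gefitinib replicate 3 and 3 without control replicate 2.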

How the data were processed

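Total RNA of 3 gefitinib and 3 control libraries was sequenced; samples were grouped by their titles. Per the submitters' processing notes, STAR, HTSeq and the GRCh38 genome were used, without versions. The deposited coding table holds a signal, read counts that the authors scaled to one total per library: 100% of 83857 values above 0 came out as whole reads within 0.01 read, which gave the depths. Another deposited table holds counts in 6 per-sample columns that no label names; these were not used, and only its symbols and positions served to find members.

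The 2-sided test was limma-trend (limma 3.58.1 in R 4.3.3) of log2(value + 1) with all 6 libraries and no covariate; it covered the 15229 genes with reads. Alternatives were edgeR 4.0.16, DESeq2 1.42.0 and limma-voom on recovered reads (edgeR called 30.5% of 12167 genes higher and 30.8% lower), pseudocounts of 0.5 and 5, filters on low values, TMM and DESeq2 size factors, removal of GC or length trends (loess, span 0.3), a replicate block and leaving out each library. The script was tried on simulated data. Same-numbered libraries deviated together weakly (r = 0.164, 0.106 and 0.146 over genes with a mean of 100 or more). Gefitinib replicate 3 and control replicate 2 also had r = 0.142, so these values do not settle whether the numbers pair libraries. Any pairing would rest on these data, since no label says what a number shares. The main p-values leave such a pairing out, and the replicate block, an alternative, includes it.

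Members, lists and rules were chosen with earlier results of these data known. Named members are the 12 largest rises and falls past the threshold with 5 CPM (90.4 normalized reads) or more and groups without overlap, the 6 most abundant and 18 with a described role; of each list, up to 6 with the smallest p. Gene IDs were matched to GENCODE 29 for coordinates, transcripts and coding sequences.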

Additional observations from a re-analysis of the deposited data

How the results depend on the processing

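Of the 119 members that rose, 90 passed in every one of 19 alternative settings, and of the 28 that fell, 14 did; no setting gave a member the opposite call. Leaving out each library in turn gave 95 to 127 members higher, 18 to 26 lower and a member median of 0.51 to 0.61. For the corepressor list it gave 4 to 5 genes higher and 8 to 13 lower. For the other zinc finger genes of chromosome 19 it gave 3 to 5 higher and 2 to 3 lower. Among members, the lowest count of rises came without gefitinib replicate 2. Their lowest counts of falls came without gefitinib replicates 2 and 3. Fewer samples were fitted there, and shares over all genes in these fits are not given here. The member median of 0.58 became 0.48 with the GC trend removed and 0.50 with the length trend removed. With the replicate block and the GC trend removed it was 0.48. Over all genes the median was 0.10 in the main fit and 0.03 with the GC trend removed. With TMM or DESeq2 size factors alone, the member median was 0.52. The replicate block alone gave 117 members higher and 28 lower and changed no call of a named gene; with the GC trend removed it gave 119 and 39, and ZFP30 was lost (adjusted p = 0.0576, limma). ZNF274 did not pass in any setting, and its log2 difference turned negative with limma-voom (-0.0116), with the length trend removed (-0.00729) and without gefitinib replicate 1 (-0.0149), with up to 0.147 without gefitinib replicate 3; the cause was not tested. Of the 51 named genes, 40 kept direction and call in every alternative that gave a value, and the other 11 are named here and in the results above, with ZSCAN5B also lost with DESeq2 (0.0802). Of the 80 tested members under 5 CPM, 49 did not pass, and of all 5098 tested coding genes under 5 CPM, 3571 did not. The part of depth in this was not tested.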
